A study of Mus musculus with 21 samples.

Results

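The genes described here are the 4 adult hemoglobin genes of the mouse, Hba-a1, Hba-a2, Hbb-bs and Hbb-bt, and Alas2, the red cell form of the first enzyme of heme synthesis. They were chosen by name, from earlier results on these same mice, and make up 5 of the 33829 genes in one deposited table and of the 55385 genes in the other. The tables hold bulk RNA-seq of the midbrain of 21 male C57BL/6 mice, labelled as 6 weeks old, with 3 mice in each of 7 groups and 2 separate experiments. MPTP is a neurotoxin that damages dopaminergic neurons, and irisin is a peptide hormone that muscle releases during exercise. In the pre-treatment experiment, control mice received ddH2O for 10 days, MPTP mice received ddH2O for 5 days and then MPTP at 30 mg/kg/d for 5 days, and the third group received irisin at 200 ug/kg/d for 5 days and then the same MPTP course. In the delayed treatment experiment, control mice received ddH2O for 10 days, irisin mice received ddH2O for 5 days and then irisin for 5 days, MPTP mice received MPTP for 5 days and then ddH2O for 5 days, and the fourth group received MPTP for 5 days and then irisin for 5 days. All injections were intraperitoneal and the doses were the same in both experiments. By the study's methods the mice were perfused before the brain was taken and the nigral tissue was dissected by hand, so each library is a mixture of cell types in which fewer cells of a type and less RNA per cell cannot be told apart. The labels do not say whether mice of one group shared a cage or litter, and p-values measure the spread between these mice only.

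Hemoglobin carries oxygen as a tetramer of a pair of alpha chains and a pair of beta chains, each around one heme, and red cell precursors make nearly all of it. Heme is built by a chain of enzymes that starts with an aminolevulinate synthase: Alas2 encodes the form of red cell precursors, and Alas1 the form of other cells. Reticulocytes, the young red cells in blood, still hold hemoglobin and Alas2 RNA although they have lost their nucleus. Hemoglobin RNA and protein have also been described in dopaminergic neurons, which makes the source of hemoglobin reads in nigral tissue a question for any such library. Whether the RNA measured here came from blood cells left in the vessels or from cells of the tissue was not tested, and the marker levels that bear on it are given beside the results.

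All 4 hemoglobin genes were abundant and Alas2 was low. The level per transcript length is given in FPKM, a fragment count scaled to transcript length and library size, as mean ± SD over the mice of one experiment, and only this unit compares one gene with another. Hbb-bs, a beta chain gene, had 222 ± 80.4 FPKM (SD, n = 9) in the pre-treatment experiment and 213 ± 61.5 (SD, n = 12) in the delayed treatment experiment. Hba-a2, an alpha chain gene, had 219 ± 74.4 FPKM (SD, n = 9) and 147 ± 44.4 (SD, n = 12). Hba-a1, the other alpha chain gene, had 179 ± 59.0 FPKM (SD, n = 9) and 136 ± 38.6 (SD, n = 12). Hbb-bt, the other beta chain gene, had 85.7 ± 29.9 FPKM (SD, n = 9) and 87.5 ± 24.5 (SD, n = 12). The order of the means was the same in both experiments, but the means of Hbb-bs, Hba-a2 and Hba-a1 lay within one SD of each other in the pre-treatment experiment. Alas2 had 1.39 ± 0.51 FPKM (SD, n = 9) and 2.14 ± 0.69 (SD, n = 12), so the 4 hemoglobin genes together stood at 429 to 599 times the Alas2 level in the mice of the first experiment and at 193 to 410 times in those of the second. Together they took 0.0226% to 0.0855% of all counts.

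Each pair of hemoglobin genes is a pair of near copies, and the split of reads between its members is uncertain. Hba-a1 lies at chr11:32283511-32284465 on the plus strand and Hba-a2 at chr11:32296489-32297298 on the same strand. Hbb-bs lies at chr7:103826534-103827928 on the minus strand and Hbb-bt at chr7:103812524-103813996 on the same strand. Alas2 lies at chrX:150547375-150570638 on the plus strand. These are the coordinates of the deposited tables, and they match GRCm38: 51954 of 55144 gene IDs (94.2%) of the larger table had the same position in GENCODE M21. Of the windows of 100 bases in the longest coding transcript of each gene, 56.5% of those of Hba-a1 and 74.5% of those of Hba-a2 occurred unchanged in the other alpha gene. For Hbb-bs and Hbb-bt the shares were 62.6% and 54.8%, each in the other beta gene. No such window of Alas2 occurred in another gene. For this reason the 4 hemoglobin genes were also summed.

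The bases just upstream are shown for Hba-a2, Hbb-bs and Alas2, and their part in the levels of the genes was not tested. They are RefSeq sequences of GRCm38.p6, 5′ to 3′ on the strand of the gene, from 250 bases before the RefSeq start to the last base before the gene in the deposited tables. Capitals mark 4 short motifs, matched on either strand: GATAA, bound by GATA factors, CACCC, bound by KLF family factors, CCAAT, and TATAA, the TATA box core. Of the alpha genes only Hba-a2 is printed, and of the beta genes only Hbb-bs. The printed bases of Hba-a2, Hbb-bs and Alas2 lie at chr11:32296242-32296488 (plus strand), chr7:103827929-103828178 (minus strand) and chrX:150547167-150547374 (plus strand).
Hba-a2: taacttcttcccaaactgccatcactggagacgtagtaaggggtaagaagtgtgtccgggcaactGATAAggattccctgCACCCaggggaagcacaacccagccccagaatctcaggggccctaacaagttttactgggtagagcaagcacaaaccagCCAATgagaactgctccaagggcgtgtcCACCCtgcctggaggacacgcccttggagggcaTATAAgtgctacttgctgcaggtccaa
Hbb-bs: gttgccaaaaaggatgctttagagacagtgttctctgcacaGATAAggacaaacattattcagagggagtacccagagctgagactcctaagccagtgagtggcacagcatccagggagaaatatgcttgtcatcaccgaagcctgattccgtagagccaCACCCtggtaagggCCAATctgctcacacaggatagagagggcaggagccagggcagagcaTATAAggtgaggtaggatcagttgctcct
Alas2: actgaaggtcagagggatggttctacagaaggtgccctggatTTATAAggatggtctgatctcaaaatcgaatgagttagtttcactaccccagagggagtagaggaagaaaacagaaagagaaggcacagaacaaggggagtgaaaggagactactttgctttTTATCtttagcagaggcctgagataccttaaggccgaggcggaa

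In the 250 bases before the RefSeq start, the upstream sequences of Hba-a1 and Hba-a2 were 97.6% identical in a global alignment. Those of Hbb-bs and Hbb-bt were 71.4% identical, and an alpha against a beta sequence gave 53.2% to 54.3%. The Alas2 sequence against those of the hemoglobin genes gave 49.4% to 52% in the same alignment, so the alpha to beta values lie little above that. Each of the 4 hemoglobin genes held all 4 motifs in this window. The TATAA match nearest to the start began 27 to 30 bases before it in all 4, and in Hbb-bs the CCAAT match began at 76 bases, the CACCC match at 90 and the GATAA match at 209. Alas2 held 1 GATAA match at 86 bases, 3 CACCC matches in the 42 bases not printed, TATAA matches only at 207 bases or farther, and no CCAAT match. Of 32851 RefSeq promoter windows of the same length, 22.6% held GATAA, 33.8% CCAAT, 52% CACCC and 22.8% TATAA, and 0.968% held all 4. A match describes the letters only.

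The level in each mouse is given in CPM, a count scaled to library size after TMM correction for library composition, which compares mice for one gene. Hba-a1 stood at 151, 224 and 195 CPM in the 3 control mice of the pre-treatment experiment, at 219.9, 214 and 154 in the MPTP mice, and at 63.2, 124 and 127 in the mice given irisin before MPTP. Hbb-bs stood at 165, 276 and 225 CPM in the same control mice, at 250.5, 279 and 175 in the MPTP mice, and at 76.5, 137 and 145 in the mice given irisin first. Alas2 stood at 2.88, 5.84 and 5.33 CPM in the control mice, at 4.71, 4.56 and 3.60 in the MPTP mice, and at 1.65, 2.96 and 2.65 in the mice given irisin first. For Hba-a1 and Hbb-bs the 3 mice given irisin before MPTP lay below all 6 others, and replicate 1 of that group was the lowest of the 9 mice for all 5 genes. For Alas2 they lay below the 3 MPTP mice but not below control replicate 1. Hba-a2 ranged from 62.1 to 223.9 CPM and Hbb-bt from 27.4 to 96.5 over these 9 mice, with the same 3 mice lowest.

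In the delayed treatment experiment Hba-a1 stood at 147, 117 and 148 CPM in control mice, at 121, 127 and 114 in irisin mice, at 74.6, 129 and 92.2 in MPTP mice, and at 99.3, 216 and 107 in mice given irisin after MPTP. Hbb-bs stood at 191, 171 and 229 CPM in control mice, at 171, 204 and 191 in irisin mice, at 119, 184 and 138 in MPTP mice, and at 138, 324 and 153 in mice given irisin after MPTP. Alas2 stood at 4.27, 5.88 and 7.58 CPM in control mice, at 5.97, 6.86 and 5.67 in irisin mice, at 5.13, 5.03 and 4.49 in MPTP mice, and at 4.61, 10.7 and 3.81 in mice given irisin after MPTP. Replicate 2 of the mice given irisin after MPTP stood above the other 11 mice for all 5 genes. The groups compared in this experiment overlapped for all 5 genes, while for Alas2 the irisin mice lay above the MPTP mice, a pair that was not compared. Hba-a2 ranged from 67.8 to 199 CPM and Hbb-bt from 42.3 to 119.8 over these 12 mice, with that mouse highest and MPTP replicate 1 lowest.

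**Figure D1:**
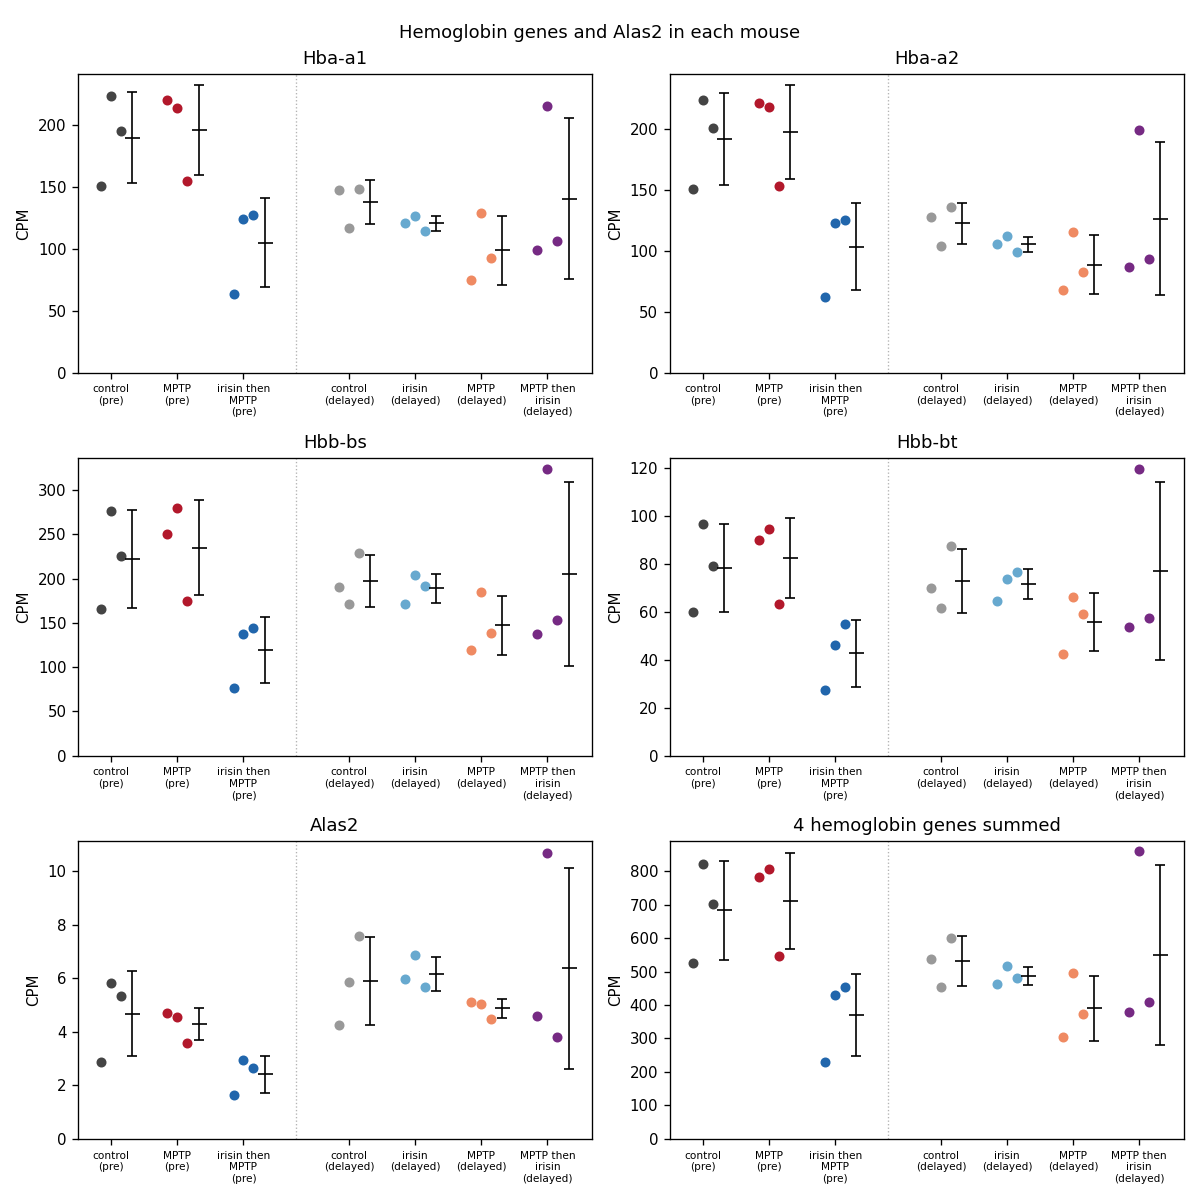
Level of each gene and of the 4 hemoglobin genes summed, in CPM (y axis), in each of the 21 mice (points, replicates 1 to 3 from left to right) of the 7 groups, with mean and SD (bars, n = 3), the dotted line parting the 2 experiments. The mice given irisin before MPTP sit lowest of the pre-treatment experiment for the summed level (229 to 453 CPM), and replicate 2 of the mice given irisin after MPTP sits highest of all (859 CPM).

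Within each experiment the members of a pair kept close to one proportion while their level differed several fold between mice. The summed hemoglobin level spanned 3.58-fold over the 9 mice of the pre-treatment experiment and 2.83-fold over the 12 mice of the delayed treatment experiment. The FPKM ratio of Hba-a1 to Hba-a2 stayed between 0.794 and 0.836 in the first and between 0.889 and 0.947 in the second. Hba-a2 was thus higher in FPKM in each of the 21 mice. In counts Hba-a1 was the higher in each of the 12 mice of the second, such as 7114 against 6172 in control replicate 1. Which alpha gene stood higher therefore depended on the scaling to length, and the split of reads between them is uncertain. The ratio of Hbb-bs to Hbb-bt ranged from 2.42 to 2.72 and from 2.15 to 2.58. The ratio of alpha to beta FPKM ranged from 1.19 to 1.38 in the first experiment and from 0.81 to 1.07 in the second. Alas2 had 5.47 to 7.61 counts per 1000 hemoglobin counts in the first experiment and 7.96 to 16.9 in the second. The ranges of the alpha to beta ratio, of the Hba-a1 to Hba-a2 ratio and of the Alas2 share did not overlap between the experiments. The tables of the experiments were made separately, so a difference between their mice and one between their libraries or counting cannot be told apart.

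**Figure D2:**
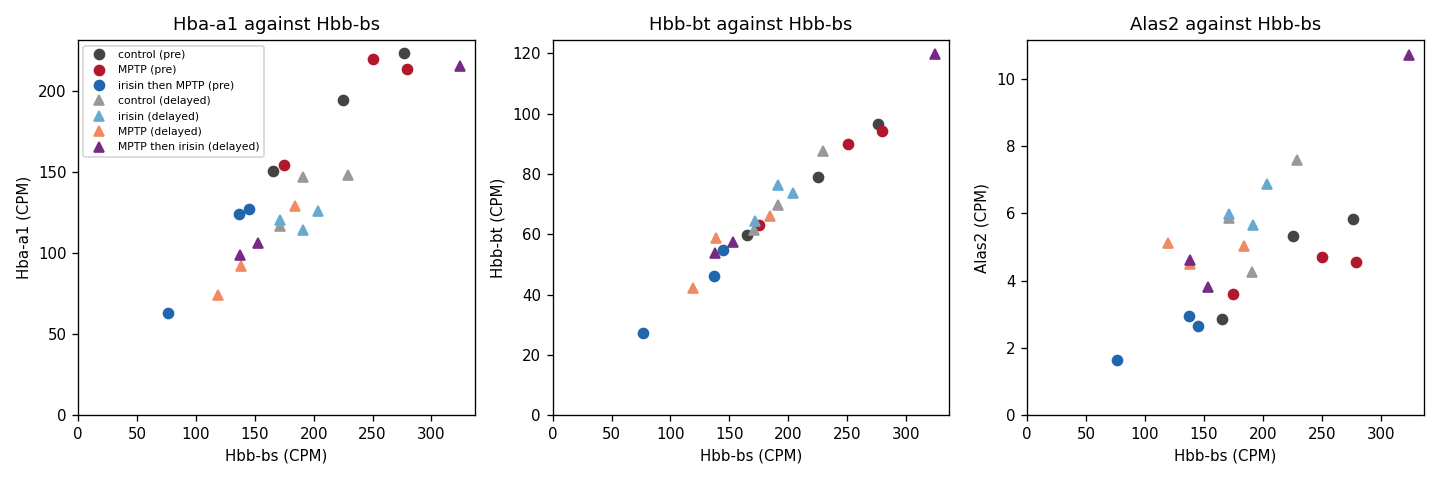
Hba-a1, Hbb-bt and Alas2 (y axes, CPM) against Hbb-bs (x axis, CPM) in 21 mice, with circles for the pre-treatment and triangles for the delayed treatment experiment and colours for the groups. Hbb-bt follows one line in both experiments, while at a given Hbb-bs level Hba-a1 lies higher and Alas2 lower in the pre-treatment mice.

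The question behind the comparisons was whether MPTP or irisin moved these transcripts. Differences are given as log2 fold changes ± SE from edgeR's quasi-likelihood fit to all genes of one experiment, with no p for the 5 genes because they were selected on these data. Between irisin before MPTP and MPTP alone the log2 fold change was -0.90 ± 0.27 for Hba-a1, -0.93 ± 0.28 for Hba-a2, -0.98 ± 0.28 for Hbb-bs, -0.95 ± 0.27 for Hbb-bt and -0.82 ± 0.31 for Alas2. The summed level was 371 ± 123 CPM (SD, n = 3) with irisin first and 711 ± 144 (SD, n = 3) with MPTP alone, which is 1.92-fold lower. In this comparison none of the 5 genes passed an adjusted p of 0.05, against 0.0707% of the 22641 genes tested, and their values did not overlap between the groups for 5 of 5 genes, against 14.2% of all genes tested. At an unadjusted p under 0.05 edgeR gave 5 of 5, against 6.22% of all genes tested. Nothing is read from these counts, because the genes were chosen with this difference known and share reads and cells. DESeq2 and limma called 0 of the 5 as well.

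In the same mice the dopaminergic neuron genes also had lower values with irisin first. Slc6a3, the dopamine transporter that takes up the toxic product of MPTP, stood at 51.3, 65.5 and 52.1 CPM in the MPTP mice and at 28.3, 37.2 and 25.7 in the mice given irisin first. The values did not overlap, and the log2 fold change of -0.89 had an adjusted p of 0.494 in edgeR. All 9 dopaminergic neuron genes had a negative log2 fold change, with a median of -0.32 against 0.0031 over all genes tested, and 0 of 9 passed in edgeR. The summed level of that list was 543 to 864 CPM in the MPTP mice and 539 to 633 in the mice given irisin first, so the groups overlapped. Its part in the hemoglobin difference was not tested.

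MPTP against control gave values of both signs in the pre-treatment experiment and negative values in the delayed treatment experiment. In the pre-treatment experiment the log2 fold changes of the 4 hemoglobin genes were 0.04 to 0.08, and that of Alas2 was -0.13 ± 0.30. The summed level was 711 ± 144 CPM with MPTP and 683 ± 148 in control mice (SD, n = 3 each). In the delayed treatment experiment the log2 fold changes were -0.48 ± 0.28 for Hba-a1, -0.47 ± 0.29 for Hba-a2, -0.42 ± 0.28 for Hbb-bs, -0.39 ± 0.28 for Hbb-bt and -0.28 ± 0.34 for Alas2. There the summed level was 390.3 ± 96.7 CPM with MPTP and 530.2 ± 74.4 in control mice (SD, n = 3 each), and the groups overlapped. Of the 5 genes, 0 passed and 0 had groups without overlap in either experiment, against 0.0221% called and 11.6% without overlap among all genes of the first and 0.132% and 16.2% among the 21922 genes tested of the second. At an unadjusted p under 0.05 the count was 0 of 5 in both, against 6.03% and 8.33% of all genes tested. Whether the values of the 2 experiments differ from each other was not tested.

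With irisin alone the mean hemoglobin level lay within one SD of that of control mice. The summed level was 486 ± 27.3 CPM with irisin and 530.2 ± 74.4 in control mice (SD, n = 3 each). The log2 fold changes ran from -0.22 ± 0.29 for Hba-a2 to 0.06 ± 0.34 for Alas2. The summed level had its smallest SD of the 7 groups in the irisin mice, at 462, 516 and 481 CPM. Of the 5 genes, 0 passed and 0 had groups without overlap, against 0.109% and 15.1% of all genes tested. At an unadjusted p under 0.05 the count was 0 of 5, against 8.97%.

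Irisin after MPTP gave higher means that rested on 1 mouse. The summed level stood at 378, 859 and 410.3 CPM in mice given irisin after MPTP and at 304, 495 and 372 in mice given MPTP alone. The log2 fold changes were 0.51 ± 0.28 for Hba-a1, 0.51 ± 0.29 for Hba-a2, 0.48 ± 0.28 for Hbb-bs, 0.46 ± 0.28 for Hbb-bt and 0.38 ± 0.34 for Alas2. Without replicate 2 of the mice given irisin after MPTP the log2 ratio of the summed level was 0.014 in place of 0.49, and the log2 fold change was 0.063 for Hba-a1, 0.026 for Hba-a2, -0.016 for Hbb-bs, -0.0018 for Hbb-bt and -0.21 for Alas2. Of the 5 genes, 0 passed and 0 had groups without overlap, against 0.00456% and 10.7% of all genes tested. At an unadjusted p under 0.05 the count was 0 of 5, against 3.9%. The comparisons of an experiment share mice: the MPTP mice of the pre-treatment experiment are in both of its comparisons, and the control and the MPTP mice of the delayed treatment experiment are each in 2 of its 3.

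**Figure D3:**
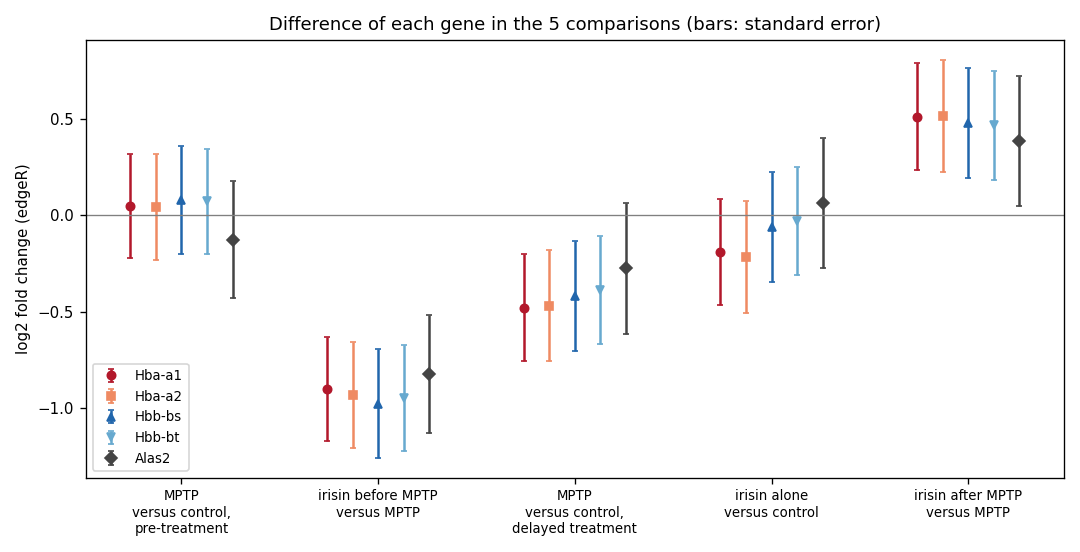
log2 fold change (y axis, edgeR) of Hba-a1, Hba-a2, Hbb-bs, Hbb-bt and Alas2 in the 5 comparisons (x axis), with bars for the standard error. The values of irisin before MPTP against MPTP lie between -0.98 and -0.82, and those of irisin after MPTP between 0.38 and 0.51.

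Among the other globins, Cygb and Ngb had the highest levels. Cygb (cytoglobin, a globin of fibroblast-like and some nerve cells) had 46.6 ± 3.56 FPKM (SD, n = 9) and 59.0 ± 3.30 (SD, n = 12). Ngb (neuroglobin, a globin of neurons) had 7.82 ± 1.63 FPKM (SD, n = 9) and 7.27 ± 1.39 (SD, n = 12). The Cygb level ranged from 106 to 132 CPM in the pre-treatment experiment, where hemoglobin ranged from 229 to 820.5 CPM. Ngb was at 14.3, 18.0 and 19.0 CPM in the mice given irisin before MPTP, where hemoglobin was lowest, and ranged from 10.5 to 19.0 CPM over the 9 mice. Across mice, group differences left in, its r with the log2 summed hemoglobin level was -0.37 over 9 mice and -0.31 over 12. Adgb (androglobin) and Mb (myoglobin of muscle) had means between 0.19 and 0.71 FPKM in both experiments, and at these low levels Adgb ranged from 0.746 to 3.38 CPM and Mb from 0.247 to 1.01 CPM over the 9 mice of the first. The theta globin genes Hbq1a and Hbq1b, which lie beside the alpha genes, had 0.83 and 0.36 FPKM in the first experiment and 0.61 and 0.56 in the second. The embryonic globin genes Hba-x, Hbb-bh1 and Hbb-bh2 were listed at 0 in all 12 mice of the delayed treatment table, and Hbb-y had 23 counts over 2 mice. Of the 12 genes of the list, 6 were in the first table and 10 in the second, and 0 of the 6 tested in each passed in any of the 5 comparisons with edgeR.

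The other genes of heme synthesis serve all cells, and the 14 on the list had a mean of at least 1 FPKM in both experiments. Alas1, the synthase of other cells, had 4.34 FPKM in the first experiment and 5.97 in the second, against 1.39 and 2.14 for Alas2. Cpox and Fech, which carry out late steps of the chain, Abcb10, a mitochondrial transporter, and Clpx, a mitochondrial chaperone that activates the synthase, were the 4 with the highest CPM. With irisin before MPTP against MPTP, where hemoglobin and Alas2 stood lower, their log2 fold changes were -0.06 for Cpox, 0.15 for Fech, 0.04 for Abcb10 and 0.05 for Clpx. Of the 14 genes 8 had a positive and 6 a negative value there, with a median of 0.02, and 0 of 14 passed in any comparison with edgeR. The summed level of the list was 390.1 to 417 CPM in MPTP mice and 408 to 426 in mice given irisin first.

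The genes of heme breakdown and transport handle heme once it is made. Slc48a1, a heme transporter, Eif2ak1, a kinase that heme holds back, Hmox2, the constitutive heme oxygenase, and Abcg2, an exporter of the blood-brain barrier, had the highest CPM of the 14. Their log2 fold changes with irisin before MPTP were -0.02 for Slc48a1, 0.09 for Eif2ak1, 0.13 for Hmox2 and 0.33 for Abcg2, and the median of the list was 0.08. Hmox1, the heme oxygenase that heme and stress induce, had 2.99 FPKM in the first experiment and 4.33 in the second. Of the 14 genes 0 passed in any comparison with edgeR.

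**Figure D4:**
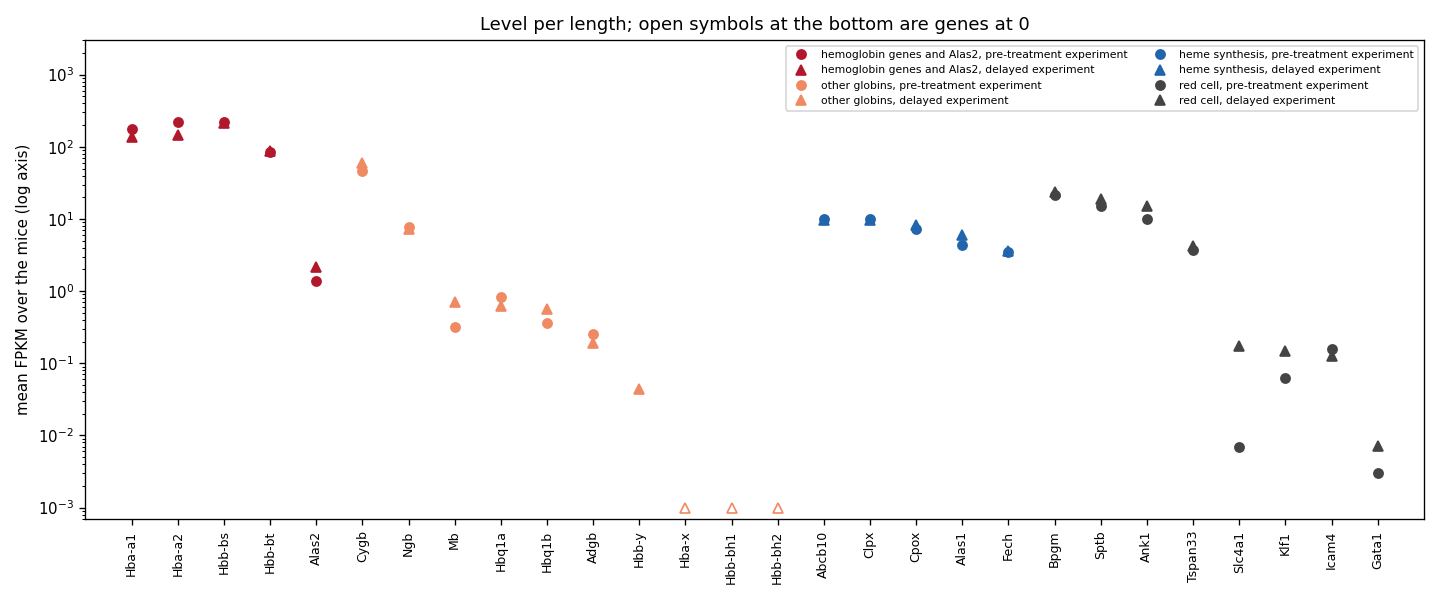
Mean FPKM (y axis, log scale) of the hemoglobin genes and Alas2 and of the other globins, heme synthesis genes and red cell genes named in the text, with circles for the pre-treatment (9 mice) and triangles for the delayed treatment experiment (12 mice), and open symbols for genes at 0. The 4 hemoglobin genes lie above every other gene plotted, and of the red cell genes shown Bpgm, Sptb, Ank1 and Tspan33 lie above 1 FPKM and the others below 0.2.

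Most genes that mark red cells were near 0 beside abundant hemoglobin. Of the 25 genes of the red cell list, 21 were in the pre-treatment table, where 5 had a mean of at least 1 FPKM and 13 a mean below 0.2, and 24 were in the delayed treatment table, where 6 and 16 did. The 4 with the highest CPM were Sptb and Ank1, membrane skeleton genes, Bpgm, an enzyme that sets oxygen affinity, and Tspan33. Sptb, Ank1 and Bpgm are also expressed in brain, and their means of 15.3, 9.96 and 21.4 FPKM in the first experiment set the summed level of the list. That sum was 423 to 499 CPM in control mice, 487 to 525 in MPTP mice and 471 to 563 in mice given irisin before MPTP, and was not lowest in the mice with the lowest hemoglobin level. In the delayed treatment experiment it was 552 to 611 CPM in control, 573 to 662 in irisin, 618 to 663 in MPTP mice and 628 to 658 in mice given irisin after MPTP. None of 13 and 18 tested genes of the list passed in edgeR.

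Slc4a1, the anion exchanger of the red cell membrane, marks the lineage more narrowly. Slc4a1 was at 0 counts in 5 of the 9 mice of the pre-treatment experiment, among them the 3 control mice, and had 26 counts in all, against 625 over the 12 mice of the delayed treatment experiment. The 3 mice given irisin before MPTP, whose hemoglobin level was the lowest, had 0, 8 and 10 counts, and the MPTP mice had 0, 4 and 4. In the delayed treatment experiment the highest Slc4a1 value, 133 counts (2.61 CPM), was in replicate 2 of the mice given irisin after MPTP, the mouse with the highest hemoglobin level. The next values were 107 and 98 counts in irisin replicates 1 and 3 and 102 in MPTP replicate 3, whose summed hemoglobin levels were 462, 481 and 372 CPM. Gata1 and Klf1, regulators of the lineage, had means of 0.0030 and 0.063 FPKM in the first experiment and 0.0072 and 0.15 in the second. Whether reticulocytes hold RNA of the genes of the red cell list was not tested here. Low counts in these tables often sat on multiples of 4 (36.3% and 40.4% of the values from 1 to 20, where 25% would be even), so they should not be read as single reads.

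White cells and platelets share the vessels with red cells. The 21 genes of their list summed to 7.85 to 11.9 CPM in control mice, 9.70 to 13.6 in MPTP mice and 8.05 to 10.7 in mice given irisin before MPTP, and 13 of them were at 0 in some mouse of that experiment. The sum in the delayed treatment experiment was 11.1 to 11.6 CPM in MPTP mice, below the 12.6 to 24.4 of control mice, the 12.9 to 13.6 of irisin mice and the 13.6 to 18.1 of mice given irisin after MPTP. Itga2b of platelets, Ly6c2 of monocytes, S100a9 of neutrophils and Lcn2 had the highest CPM. S100a9 stood at 1.11, 1.03 and 2.36 CPM in the MPTP mice and at 0.56, 0.57 and 0.87 in the mice given irisin first, a log2 fold change of -1.17. It was the only gene of the 16 tested whose groups did not overlap there, so those of Itga2b, Ly6c2 and Lcn2 overlapped. In the delayed treatment experiment S100a9 was at 0.59, 0.74 and 0.55 CPM with MPTP, at 1.26, 2.62 and 1.67 in control mice and at 1.72, 1.88 and 1.23 with irisin after MPTP. The median log2 fold change of the list was -0.27 for irisin before MPTP, -0.37 for MPTP against control and 0.57 for irisin after MPTP, the sign of the hemoglobin values in each, and 0 of its genes passed in edgeR. In these comparisons 6 genes had positive and 10 negative values, then 5 and 14, then 13 and 6, and the groups did not overlap for 1 of 16, 6 of 19 and 5 of 19 genes. In MPTP against control of the pre-treatment experiment the median was 0.17, with 9 positive and 7 negative values. With irisin alone it was -0.20, with 7 positive and 12 negative. These medians also had the sign of the summed hemoglobin level, whose log2 ratios there were small, at 0.059 and -0.12. The medians of the dopaminergic neuron list had the sign of the summed level as well, except with irisin after MPTP, where the median was -0.07. They were -0.32 for irisin before MPTP, -0.58 and 0.16 for MPTP against control (delayed and pre-treatment) and -0.12 for irisin alone. The comparisons share mice, so their signs are not independent of each other. The part of white cells and platelets in the hemoglobin values was not tested.

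Markers of vessels and brain cells were also set beside hemoglobin. The 14 endothelial genes, led by Flt1, Slco1a4, Ly6c1 and Pecam1, summed to 327 to 342 CPM in MPTP mice and to 336 to 347 in mice given irisin first, and their median log2 fold change lay between -0.06 and 0.02 in the 5 comparisons. With irisin before MPTP these genes went both ways: 7 values were positive and 7 negative, 8 of the 14 genes had groups without overlap against 14.2% of all genes tested, 5 had an unadjusted p under 0.05, and 0 passed in edgeR. The log2 fold change was 0.53 for Cldn5, a tight junction gene with an edgeR adjusted p of 0.129, and 0.32 for Slco1a4, a transporter, against -0.24 for Pecam1, -0.26 for Flt1 and -0.33 for Tie1. The part of vessel cells in the hemoglobin difference was not tested. The median lay between -0.15 and 0.0033 for the 5 astrocyte genes, led by Gfap, Aqp4, Gja1 and Slc1a3. It lay between -0.18 and 0.09 for the 6 oligodendrocyte genes, among them Mobp, Mbp and Cnp. For the 9 dopaminergic neuron genes, led by Aldh1a1, Slc18a2, Ddc and Slc6a3, it ran from -0.58 in MPTP against control of the delayed treatment experiment to 0.16 in that of the pre-treatment experiment. Slc6a3 stood at 62.9, 66.2 and 67.4 CPM in the control mice of the delayed treatment experiment and at 15.3, 24.3 and 53.5 in the MPTP mice. Its groups did not overlap, and its log2 fold change of -1.08 had an adjusted p of 0.458 in edgeR.

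Over the 9 lists, 0 of the 97 genes tested in the pre-treatment experiment and 0 of the 105 tested in the delayed treatment experiment passed in edgeR, with adjusted p taken over all genes tested. At an unadjusted p under 0.05 the counts in the first experiment were 7 for MPTP against control (7.22%, against 6.03% of all genes tested) and 9 for irisin before MPTP (9.28% against 6.22%). In the second they were 17 for MPTP against control (16.2% against 8.33%), 6 for irisin alone (5.71% against 8.97%) and 5 for irisin after MPTP (4.76% against 3.9%). DESeq2 called 2, 2, 4, 0 and 1 of these genes in the same order, out of 91, 168, 178, 144 and 34 genes it called in all, and limma called 0. Those were Icam4 and Cldn5, then Slc6a3 and Cldn5, then Th, Foxa1, S100a9 and Ngp, and last Ngp, all named for having passed there.

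Within groups, the level of Hbb-bs was set against that of Alas2 and of the 9 lists. The mean of each group was taken out of log2 CPM before Pearson's r was computed. Hbb-bs and Alas2 had r = 0.91 over the 9 mice of the pre-treatment experiment and 0.80 over the 12 mice of the delayed treatment experiment, and Spearman's rho was 0.733 and 0.65. Both genes were chosen on these mice, so this is a description with no p. Without the 2 mice farthest in Hbb-bs, r was 0.9003 over 7 mice and 0.34 over 10 mice, so in the delayed treatment experiment the relation rested on those mice. For the red cell list r was -0.40 and 0.19, for white cells and platelets 0.13 and 0.14, for endothelial genes 0.34 and 0.24, for heme synthesis 0.092 and -0.46 and for heme breakdown and transport -0.64 and 0.15. It was 0.58 and 0.15 for dopaminergic neurons, 0.29 and 0.56 for astrocytes, 0.044 and -0.18 for oligodendrocytes and -0.28 and 0.40 for the other globins.

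These values of the lists also rested on few mice. Without the same 2 mice of the pre-treatment experiment r was -0.90 for the other globins, 0.84 for astrocytes, 0.82 for oligodendrocytes, 0.78 for dopaminergic neurons and 0.77 for endothelial genes. It was 0.55 for white cells and platelets, 0.54 for heme synthesis, 0.38 for the red cell list and 0.31 for heme breakdown and transport. Without the 2 mice of the delayed treatment experiment r was -0.71 for oligodendrocytes, -0.63 for dopaminergic neurons, -0.62 for heme synthesis and -0.45 for white cells and platelets. It was 0.35 for astrocytes, 0.28 for heme breakdown and transport, 0.17 for the red cell list, 0.036 for endothelial genes and -0.050 for the other globins. By exact permutation of mice within groups, two-sided and adjusted over 20 relations, the adjusted p of the lists ran from 0.549 to 0.884 with all mice. Over 9 mice a single relation could not go below an adjusted p of 0.0926 in this exact permutation test, so these p-values say little there.

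**Figure D5:**
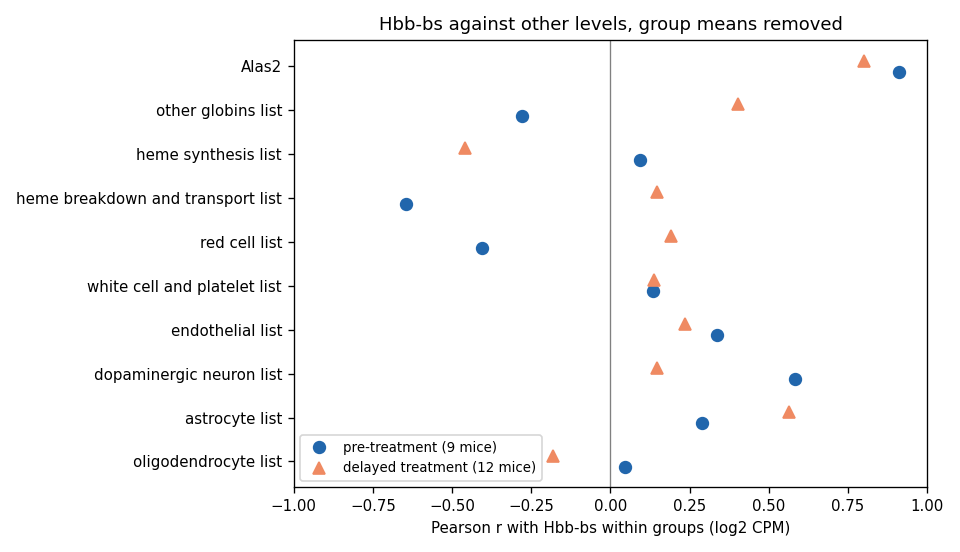
Pearson's r (x axis) of log2 CPM of Hbb-bs with Alas2 and with the summed level of each of 9 gene lists (y axis), after the group means were taken out, for 9 mice (circles) and 12 mice (triangles). The r of Alas2 is 0.91 and 0.80, and those of the lists lie between -0.64 and 0.58.

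The genes whose level was most like that of hemoglobin across mice were named from the 21149 genes tested in both experiments, by the lower of the 2 Pearson correlations of log2 CPM with the log2 summed level. Group differences were left in, mice of one table share its processing, and no p is given. Alas2 had the second highest value, with r = 0.95 over 9 mice and 0.76 over 12. Ptgs2, the inducible cyclooxygenase, had the highest, with r = 0.84 and 0.80, at 0.151 to 1.19 CPM in the first and 0.671 to 3.22 CPM in the second experiment. Ier2, an immediate early gene, had r = 0.80 and 0.64 at 1.69 to 6.00 and 3.55 to 11.4 CPM. Utp18, a ribosome assembly gene, had 0.79 and 0.74, Apba3 0.65 and 0.69, Tmem129 0.62 and 0.69 and Trpc6, a calcium channel, 0.62 and 0.69. The gene models Gm6501, AC138768, Gm45212 and Gm12693 completed the 10, with lower r values of 0.65, 0.65, 0.64 and 0.62. None of the genes of the 9 lists was among them. The list gene with the highest value was Pitx3, a regulator of dopaminergic neurons, at place 15 with r = 0.60 over 9 mice and 0.80 over 12, at 0 to 0.96 CPM and 0 to 0.628 CPM. It was named after its values were seen, and its counts were low. Among the other dopaminergic genes Slc6a3 had r = 0.77 over 9 mice and 0.22 over 12. Th, the rate-limiting enzyme of dopamine synthesis, had 0.83 and 0.19, Nr4a2 0.88 and 0.11 and Foxa1 0.80 and 0.34. Slc18a2 had 0.48 and 0.19, Ddc 0.48 and 0.036, Aldh1a1 0.27 and 0.34 and En1 0.24 and -0.18. The endothelial genes ran from -0.76 for Egfl7 to 0.89 for Pecam1 over 9 mice. Over 12 mice they ran from -0.43 for Slco1a4 to 0.54 for Cldn5.

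The genes that flank the clusters did not pass either. Within 50 kb of the alpha genes lie Nprl3, which holds the distal enhancers of the cluster in its introns, Hbq1a and Hbq1b. Nprl3 was at 2.67 FPKM in the first and 2.72 in the second experiment, with log2 fold changes of 0.49 for irisin before MPTP (adjusted p = 0.656, edgeR) and -0.20 for irisin after MPTP (adjusted p = 0.9995, edgeR). Beside the beta genes, Olfr67, Olfr68 and Olfr69 were listed at 0 in all 12 mice of the delayed treatment table. Apex2, a DNA repair enzyme, and Pfkfb1 flank Alas2, and their log2 fold changes for irisin before MPTP were -0.19 and 0.51 with adjusted p of 0.985 and 0.96 in edgeR.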

How the data were processed

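The authors deposited, for each experiment, 1 table of whole-number gene counts and FPKM values, named by Ensembl ID and symbol. The submitters' processing notes name HISAT, StringTie, edgeR and the build mm9, the study's methods name featureCounts on Illumina NovaSeq reads, and the deposited coordinates are those of GRCm38; strand use in counting is not given in the sources used here. Totals were 66.7 M to 75.6 M counts in the pre-treatment and 48.8 M to 77.2 M in the delayed treatment experiment. Low counts favoured multiples of 4, so no counting interval is given, and the spread between 3 mice a group sets the precision. No 2 libraries agreed within sampling noise (chi-square per gene of at least 36.9 within groups). FPKM values the authors filled in place of 0 in the delayed treatment table were set to 0.

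Each experiment was fitted alone with edgeR 4.0.16 (R 4.3.3; filterByExpr with min.count 10 and min.total.count 15, TMM, quasi-likelihood test, all groups, Benjamini-Hochberg over all genes tested), after a test on simulated counts. DESeq2 1.42.0 and limma 3.58.1, on log2(FPKM + 1) with genes of a mean of at least 0.1 FPKM, were alternatives. Groups came from the labels. The 5 genes, the 9 lists (120 genes) and the tests were chosen with earlier results of these data known. Named genes were the 5, any list gene that passed, the 4 of each list with the highest mean CPM, and the 10 most like hemoglobin (0.5 added to CPM before log2); further genes were named as cell markers, neighbours or DESeq2 calls after their values were seen. Same-numbered mice were different animals and did not deviate together: the correlation of their deviations was over 0.1 in 1 of 9 and 0 of 18 pairs. Sequences came from RefSeq and GENCODE M21, and all 5 promoters were found.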

Additional observations from a re-analysis of the deposited data

How the results depend on the processing

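The summed hemoglobin level stayed within the spread between mice (1 SD) under all 55 alternatives tried. These were other scaling, FPKM, mean of log2 values, the replicate block and leaving out each mouse. The replicate block gave the same summed values as the mean of log2 values, because every group holds the same replicate numbers, so it adds no separate check. Leaving out 1 mouse, the log2 ratio of the summed level ranged from -1.11 to -0.69 for irisin before MPTP. For MPTP against control it ranged from -0.097 to 0.22 in the pre-treatment experiment and from -0.65 to -0.29 in the delayed treatment experiment. It ranged from -0.23 to -0.024 for irisin alone and from 0.014 to 0.701 for irisin after MPTP. In this last comparison replicate 2 of the mice given both widens the spread itself, to 269 CPM on a mean of 549. Without that mouse the log2 ratio was 0.014 in place of 0.49, so staying within the spread does not mean that this difference was kept. For the 5 genes, 298 alternative log2 fold changes stayed within that spread and 2 did not, both of Alas2: -0.46 with limma for irisin before MPTP and -0.21 for irisin after MPTP without replicate 2 of the mice given both. The sign stayed negative for all 5 genes with irisin before MPTP and with MPTP against control in the delayed treatment experiment. It changed under some alternative for all 5 genes in MPTP against control of the pre-treatment experiment, for Hbb-bs, Hbb-bt and Alas2 with irisin alone, and for the same 3 with irisin after MPTP. The relations of Hbb-bs with the lists moved widely without 2 mice, as given with them. The number of genes called depended on the tool. The 5, 16, 29, 24 and 1 genes of the comparisons MPTP against control and irisin before MPTP, then MPTP against control, irisin alone and irisin after MPTP, became 91, 168, 178, 144 and 34 with DESeq2. The cause was not tested. With only the compared groups in the fit they became 10 for the first, 10 for the third, 14 for the fourth and 9 for the last. With limma they became 16 for the third and 15 for the fourth. With all genes of any count the last became 2, and with counts divided by 4, an alternative chosen after seeing the data, it also became 2. With the replicate block, which fits the replicate number although it does not pair these mice, the first 4 became 2, 8, 17 and 14, and no gene of the 9 lists was called. Leaving out 1 mouse gave 7 to 17, 10 to 26, 16 to 35, 16 to 29 and 1 to 7 genes. List genes called went from 0 to 1 in MPTP against control of the delayed treatment experiment without MPTP replicate 3. Depth limits the red cell markers and Alas2, whose 120 to 545 counts a mouse are the fewest of the 5 genes.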
